A study of Bos taurus with 18 samples.

Results

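The enzymes of glycolysis and the citric acid cycle were followed in the 3 cell populations of the bovine preovulatory follicle. The list named 45 genes: the glycolytic enzymes, the lactate dehydrogenases, the enzymes that admit pyruvate to the mitochondrion, the enzymes of the cycle, and the aminotransferases that join both pathways to alanine and aspartate. Of these, 40 had a probe set with their symbol, among 9155 genes so named on the array, and each was read from 1 probe set, the brightest on average across the 18 arrays. HK2, PDK1, IDH3B, DLST and MDH1 had no probe set in the annotation used here and were not analysed.

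Affymetrix arrays of 6 groups of 3 were compared, with cattle (Bos taurus) as the species and 1 dominant follicle from each of 6 cows. Cows A, B and C gave their follicle 22 h after GnRH, the hypothalamic hormone that makes the pituitary release luteinizing hormone (LH), whereas the follicles of cows D, F and G were taken before LH. Each follicle gave antral granulosa (aspirated with the follicular fluid), theca (the androgen-making outer layer) and membrane granulosa (the cells left on the follicle wall), hence 1 array per population and cow. Breed, age and any treatment before collection were not given in the sources used here, and the labels name no sort of the cells. A cow is the replicate, so n = 3 cows in every group.

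Glycolysis splits glucose into pyruvate in the cytosol and yields a little ATP, with phosphofructokinase and pyruvate kinase among its regulated steps. Pyruvate is reduced to lactate or enters the mitochondrion, where pyruvate dehydrogenase makes acetyl-CoA for the citric acid cycle, and isocitrate dehydrogenase and the enzymes after it pass electrons to the respiratory chain. Granulosa cells are known to make much lactate from glucose, and the follicle's inner layer has no blood vessels until ovulation, when it becomes the corpus luteum.

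All values are log2 signals, so a difference of 1 is a doubling. Levels are given in the order of cows A, B and C after LH, and D, F and G before LH. Changes are given ± SE, from a spread shared by all groups, and a call is an adjusted p under 0.05 from limma with Benjamini-Hochberg adjustment over 24016 probe sets. Probe sets differ in brightness for technical reasons, so no gene's level was set against another's. In RNA of a whole preparation, a smaller share of cells that make a transcript and less transcript per cell cannot be told apart.

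The preparations were checked against marker genes. CYP19A1, the aromatase of granulosa, was at 5.29, 4.99 and 3.70 in membrane granulosa after LH, against 13.92, 13.69 and 13.59 before LH. It was also well above the limit of 4.62, below which the dimmest probe sets lie, in theca before LH, at 10.85, 11.82 and 8.21, against 4.08, 3.92 and 3.91 after LH. CYP17A1, the androgen-making enzyme of theca, was at 4.88, 4.67 and 4.48 in membrane granulosa after LH, against 10.42, 4.90 and 8.84 before LH. In theca it was at 5.28, 5.57 and 5.61 after LH, against 12.67, 10.48 and 12.11 before LH. Its low level in membrane granulosa after LH is therefore no gauge of theca cells there. INSL3, a hormone of theca, was at 12.23, 13.32 and 13.22 in membrane granulosa after LH, against 14.04, 10.87 and 13.60 before LH. Over 7 theca markers the summed level there was 12.61 to 13.94 after LH, against 11.33 to 14.45 before LH, with the lowest array in cow F before LH. A summed level is the log2 of the added unlogged signals, so the brightest genes weigh most. The theca sum there mostly repeats INSL3. Red cell markers were below the limit on all arrays for 4 of 6 genes in every group.

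Cow C stood apart for these enzymes. Within the arrays after LH, it had the highest level in all 3 populations for 21 of 40 enzymes (52.5%), against 12.5% of all probe sets. Cow A did for 3 (7.5%, against 6.28% of all probe sets) and cow B for 1 (2.5%, against 8.76%). Among the cows before LH, cow D did for 9 of 40 enzymes (22.5%, against 5.24% of all probe sets). Cows F and G did for none, against 5.38% and 6.66% of all probe sets. The 21 genes ran through both pathways, from HK1, GPI, TPI1, GAPDH and PGK1 to the pyruvate dehydrogenase subunits PDHA1, PDHB and DLAT, and on to CS, IDH3A, FH and MDH2. DLAT, the E2 subunit of pyruvate dehydrogenase, was 1.20, 0.92 and 1.24 higher in cow C than the mean of cows A and B in membrane granulosa, antral granulosa and theca. The aspartate aminotransferase GOT1 was 1.42, 1.14 and 1.34 higher, and TPI1, which interconverts the triose phosphates, 1.11, 0.82 and 1.15 higher. GPT, an alanine aminotransferase, ran the other way, at -1.02, -0.70 and -0.48. GPT2, an alanine aminotransferase outside the 40 enzymes, was at 7.32, 6.98 and 11.36 in membrane granulosa of cows A, B and C. It was at 7.70, 6.90 and 10.59 in antral granulosa and 7.23, 6.95 and 10.97 in theca. The preparations of cow C also differed in marker genes. The summed level of 8 fibroblast and stroma genes was 13.19, 13.28 and 14.66 in membrane granulosa of cows A, B and C. It was 10.25, 9.50 and 11.86 in antral granulosa and 15.98, 15.81 and 15.57 in theca. That of 12 granulosa genes was lowest in cow C in all 3 populations (14.78, 14.93 and 13.92). Their part in the enzyme levels was not tested. The pattern of cow C is a description of 1 cow, noticed after the values were seen.

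**Figure D1:**
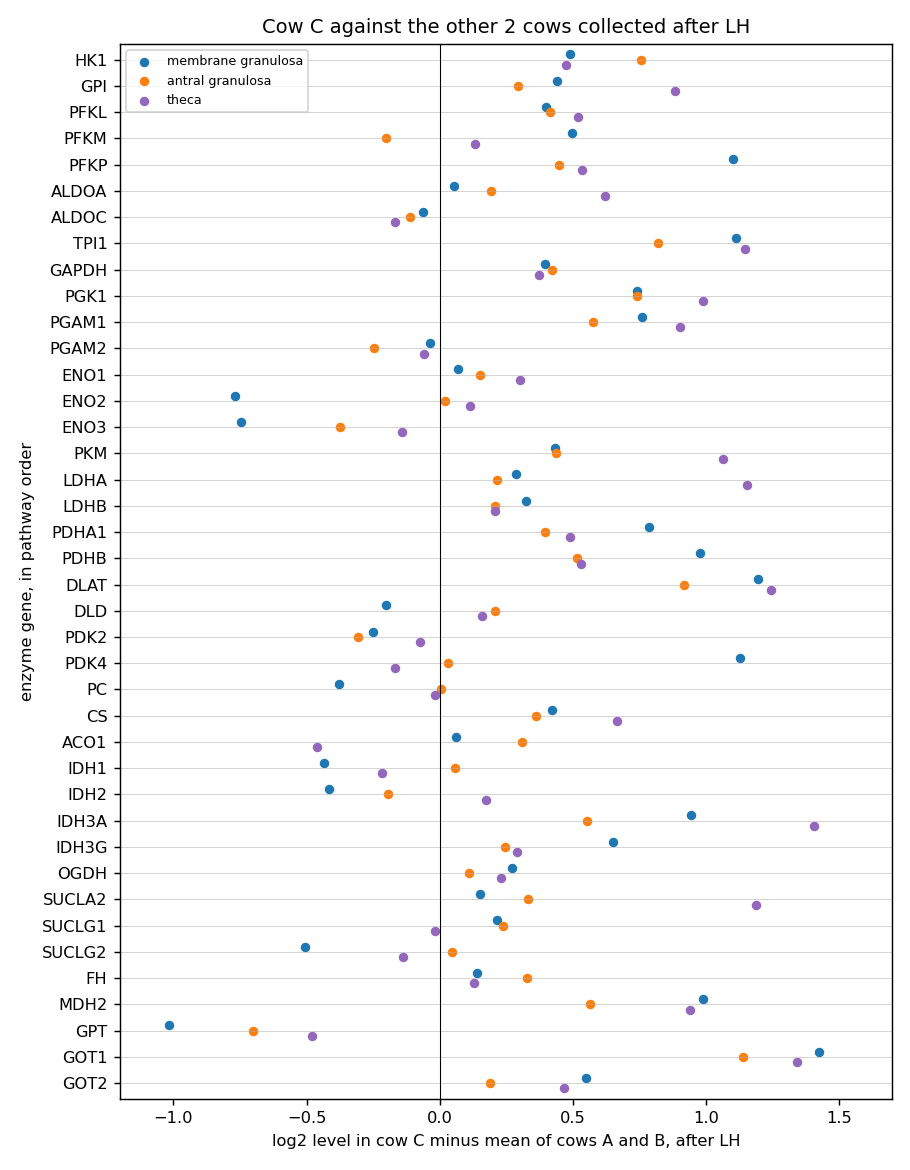
Level in cow C minus the mean of cows A and B after LH (x axis, log2) for the 40 enzyme genes in pathway order (y axis), with 1 point per cell population. Most points lie right of 0, with DLAT, TPI1 and GOT1 far right in all populations and GPT left of 0.

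The LH comparison asks how the enzymes stood 22 h after GnRH relative to before LH in each population. In membrane granulosa 8 of 40 enzymes rose and 7 fell, 37.5% in all, against 21.0% of all probe sets (10.0% higher and 10.9% lower). Antral granulosa had 6 that rose and 9 that fell, also 37.5%, against 22.4% of all probe sets (10.3% higher and 12.2% lower). In theca 1 rose and 3 fell, 10.0%, against 3.92% of all probe sets (1.79% higher and 2.12% lower). The median change of the 40 enzymes was 0.08 in membrane granulosa, -0.18 in antral granulosa and -0.01 in theca, against -0.05, -0.01 and 0.00 over all probe sets. Fitted changes of single enzymes spanned -4.73 to 2.19 in membrane granulosa, -4.27 to 2.40 in antral granulosa, and -2.19 to 1.22 in theca. Groups did not overlap for 21 of 40 enzymes in membrane granulosa, against 34.5% of all probe sets, for 20 in antral granulosa, against 36.7%, and for 10 in theca, against 20.4%. In membrane granulosa 4 rose without cow A, and 4 fell without cow F. Without cow D 7 rose and 4 fell, and without cow G 5 rose and 5 fell. In antral granulosa 3 rose without cow G. Of the called enzymes, 8 of 15, 10 of 15 and 3 of 4 stayed called whichever cow was left out.

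Markers of other cells and of RNA length were also read before and after LH. In antral granulosa 4 of 8 fibroblast and stroma genes rose, with a summed level of 9.50 to 11.86 after LH, against 8.76 to 9.01 before LH. COL3A1, MGP and OGN lay below the limit on all antral arrays before LH. The 3′ minus 5′ signal of the GAPDH control probe sets was 0.46 to 0.87 in antral granulosa after LH, against 0.12 to 0.47 before LH, and that of the actin control probe sets 1.59 to 1.82, against 1.15 to 2.25. In membrane granulosa the stroma sum was 13.19 to 14.66 after LH, against 11.57 to 13.29 before LH, with none of the 8 genes called higher and 1 lower. Their part in the enzyme values was not tested.

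**Figure D2:**
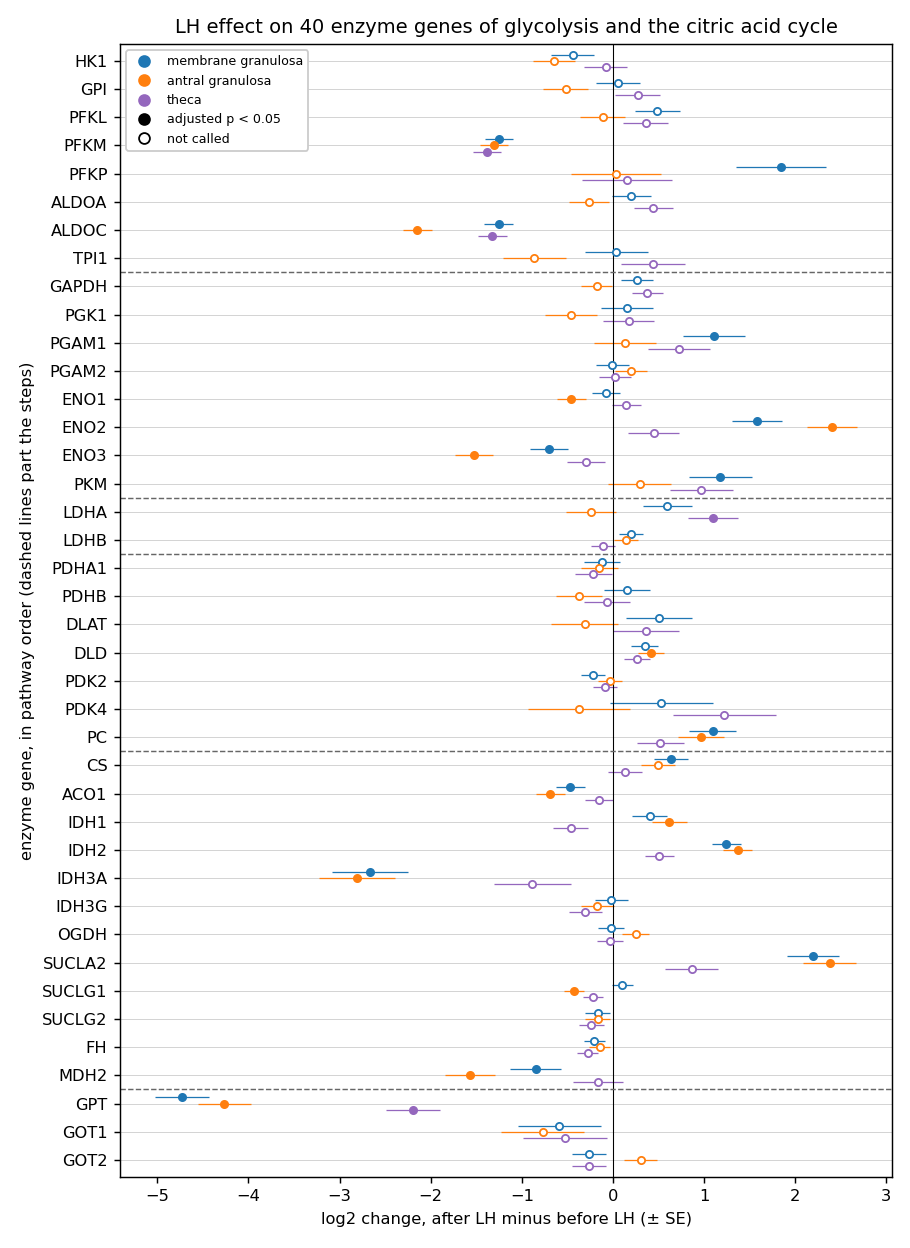
Change after LH minus before LH (x axis, log2 ± SE) for the 40 enzyme genes in pathway order (y axis) in 3 populations of 3 cows per group, with filled points for adjusted p under 0.05. GPT and IDH3A lie far left in both granulosa populations, SUCLA2 and IDH2 right, and PFKM and ALDOC left in all populations.

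In the upper part of glycolysis, from glucose to triose phosphate, 1 of 8 enzymes rose and 2 fell in membrane granulosa, 2 fell in antral granulosa and 2 fell in theca. The 2 that fell were PFKM and ALDOC in each population. PFKM, the muscle-type subunit of phosphofructokinase, was at 7.33, 7.42 and 7.87 in membrane granulosa after LH, against 8.76, 8.81 and 8.80 before LH. In antral granulosa it was at 7.11, 7.12 and 6.91, against 8.24, 8.19 and 8.63, and in theca at 7.85, 7.83 and 7.97, against 9.37, 9.05 and 9.38. The groups did not overlap in any population. The change was -1.25 ± 0.15 (adjusted p = 2.51e-05) in membrane granulosa, -1.31 ± 0.15 (adjusted p = 1.25e-05) in antral granulosa and -1.39 ± 0.15 (adjusted p = 9.75e-05) in theca. A further PFKM probe set was also called lower in each (-0.91, -0.99 and -1.10), and one that lay below 4.62 on all arrays after LH was not called.

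ALDOC, the brain-type aldolase that splits fructose bisphosphate, was at 7.84, 7.96 and 7.84 in membrane granulosa after LH, against 9.09, 9.31 and 9.01 before LH. Antral granulosa had 7.74, 7.79 and 7.65, against 10.12, 9.69 and 9.81, and theca 7.82, 8.02 and 7.75, against 9.17, 8.85 and 9.54. Every array after LH lay below every array before LH in each population, and the levels after LH lay within a narrow span in all 9 arrays. ALDOC fell by 1.26, 2.15 and 1.32 on the log2 scale in membrane granulosa, antral granulosa and theca (adjusted p = 3.67e-05, 1.56e-07 and 0.000197).

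PFKP, the platelet-type subunit, was the enzyme of this stretch that rose, and only the membrane granulosa comparison called it. It was at 7.56, 6.43 and 8.09 after LH, against 5.81, 5.38 and 5.38 before LH, without overlap (1.84 ± 0.49, adjusted p = 0.014). The call ended without cow A, C or F (0.0606 to 0.0761 as adjusted p). In antral granulosa the groups overlapped, at 7.70, 6.62 and 7.61, against 8.21, 7.64 and 5.98 (0.03 ± 0.49, adjusted p = 0.974), and in theca the change was 0.16 ± 0.49 (adjusted p = 0.94). The other subunit of the tetramer, the liver-type PFKL, was not called in any population, nor were HK1, GPI, ALDOA and TPI1. Without cow C, HK1 (-0.90), GPI (-0.62), TPI1 (-1.14), PGK1 (-0.71), PDHB (-0.54), DLAT (-0.62) and GOT1 (-1.15) were called lower in antral granulosa (adjusted p 0.000804 to 0.046), and the count of enzymes that fell there became 15 rather than 9. In membrane granulosa HK1 (-0.61) and GOT1 (-1.06) were then called lower (adjusted p = 0.0318 and 0.0207).

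From triose phosphate to pyruvate, 3 of 8 enzymes rose and 1 fell in membrane granulosa, 1 rose and 2 fell in antral granulosa, and none was called in theca, where 11 of the 40 enzymes had an unadjusted limma p under 0.05, against 15.4% of all probe sets. The 3 enolases, which make phosphoenolpyruvate, differed in direction. ENO2, the neuronal-type enolase, was at 6.09, 4.74 and 4.65 in membrane granulosa after LH, against 3.47, 3.80 and 3.48 before LH. In antral granulosa it was at 6.24, 6.04 and 6.16, against 3.60, 3.90 and 3.72. Both granulosa groups before LH lay below 4.62 on all 3 arrays, so ENO2 was higher after LH by at least 0.54 (adjusted p = 0.000614) and at least 1.52 (adjusted p = 9.68e-06). Theca was below that limit on all 6 arrays, and no change is given there. Membrane granulosa of cow A was more than 1 unit above cows B and C after LH, while the 3 antral arrays lay close together.

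ENO3, the muscle-type enolase, went the other way in granulosa. It was at 5.61, 5.05 and 4.96 in antral granulosa after LH, against 6.86, 6.67 and 6.69 before LH (-1.53 ± 0.21, adjusted p = 5.42e-05), and at 5.74, 5.83 and 5.04, against 6.37, 6.40 and 5.97, in membrane granulosa (-0.71 ± 0.21, adjusted p = 0.024). The groups were separate in both populations, but the membrane call ended without cow C, D or F (0.101 to 0.112 as adjusted p). ENO1, the ubiquitous enolase, was called only in antral granulosa (-0.46 ± 0.16, adjusted p = 0.0465), at 13.59, 13.63 and 13.76 after LH, against 14.29, 13.84 and 14.21 before LH. That call ended without cow A, B, C, D or G (0.0543 to 0.179 as adjusted p).

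PKM, the pyruvate kinase of most tissues, was at 8.76, 8.22 and 8.92 in membrane granulosa after LH, against 7.72, 7.41 and 7.24 before LH, without overlap (1.18 ± 0.35, adjusted p = 0.0232). In theca it was at 7.65, 7.13 and 8.45, against 7.27, 6.17 and 6.89 (0.97 ± 0.35, adjusted p = 0.16), and in antral granulosa at 7.58, 7.28 and 7.87, against 7.80, 6.79 and 7.25 (0.30 ± 0.35, adjusted p = 0.623). The groups overlapped in both of these. The membrane call ended without cow A or G (0.116 to 0.126 as adjusted p). PGAM1, the phosphoglycerate mutase of most tissues, was called in membrane granulosa alone, at 11.42, 10.77 and 11.85 after LH, against 10.54, 10.53 and 9.64 before LH (1.11 ± 0.34, adjusted p = 0.0301), and not without cow A, C, F or G (0.0515 to 0.2 as adjusted p). GAPDH, which oxidises the triose phosphate and is often used as a reference gene, had fitted changes of 0.26 ± 0.17, -0.18 ± 0.17 and 0.38 ± 0.17 in membrane granulosa, antral granulosa and theca and was not called in any.

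The lactate dehydrogenases interconvert pyruvate and lactate. LDHA, the muscle-type subunit, was at 11.47, 11.65 and 12.71 in theca after LH, against 10.84, 10.75 and 10.95 before LH, without overlap (1.10 ± 0.27, adjusted p = 0.0342). This was the single rise in theca, and it ended without cow B, C, D, F or G (0.0526 to 0.116 as adjusted p). Cow C had the highest theca level, well above cows A and B. The 2 further LDHA probe sets did not follow it: their changes in theca were 0.00 and -0.24, neither called, and in membrane granulosa -0.72 and 0.59, both called (adjusted p = 0.0106 and 0.0424). The direction of LDHA was therefore not settled by this array. LDHB, the heart-type subunit, was not called in any population, with changes of 0.20 ± 0.13, 0.14 ± 0.13 and -0.11 ± 0.13.

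Among the 7 enzymes at the entry of pyruvate, PC was the one called in both granulosa populations. PC, pyruvate carboxylase, makes oxaloacetate and so refills the cycle. It was at 7.66, 7.66 and 7.28 in membrane granulosa after LH, against 6.55, 6.45 and 6.32 before LH (1.09 ± 0.26, adjusted p = 0.00575), and at 7.75, 7.60 and 7.68, against 7.27, 6.76 and 6.09, in antral granulosa (0.97 ± 0.26, adjusted p = 0.0116). The groups were separate in both. The antral call ended without cow A or G (0.0659 to 0.085 as adjusted p), and the 2 further PC probe sets were not called in either population (0.15 and -0.31 in membrane granulosa, -0.28 and -0.03 in antral granulosa). DLD, the E3 subunit that pyruvate dehydrogenase shares with the oxoglutarate complex, was called in antral granulosa only (0.42 ± 0.14, adjusted p = 0.0491), at 9.94, 9.93 and 10.14, against 9.40, 9.72 and 9.63, and not once any 1 of the 6 cows was left out (adjusted p 0.0545 to 0.171). The E1 and E2 subunits PDHA1, PDHB and DLAT and the kinases PDK2 and PDK4, which switch the complex off, were not called in any population with all cows. Without cow C, PDHB and DLAT were called lower in antral granulosa, as given above.

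The citric acid cycle had 3 of 12 enzymes that rose and 3 that fell in membrane granulosa, 3 and 4 in antral granulosa, and none in theca. Among the isocitrate dehydrogenases, IDH3A fell and IDH2 rose in both granulosa populations. IDH3A, the catalytic subunit of the NAD-linked enzyme that drives the cycle forward, was at 9.66, 9.59 and 10.57 in membrane granulosa after LH, against 12.44, 12.39 and 12.99 before LH. In antral granulosa it was at 9.39, 9.21 and 9.85, against 12.21, 11.65 and 13.02. No array after LH reached the lowest array before LH in either population. The change was -2.67 ± 0.42 (adjusted p = 0.000238) in membrane granulosa and -2.81 ± 0.42 (adjusted p = 0.000128) in antral granulosa. A second IDH3A probe set was called too, at -2.75 and -2.39. IDH3G, a regulatory subunit of the same enzyme, was not called, with -0.02 ± 0.18 and -0.17 ± 0.18.

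IDH2, the mitochondrial NADP-linked enzyme, was at 9.56, 9.20 and 8.97 in membrane granulosa after LH, against 8.01, 8.10 and 7.89 before LH. Antral granulosa had 9.50, 9.25 and 9.18, against 7.90, 7.85 and 8.07. Both comparisons were without overlap, and the change was 1.24 ± 0.16 (adjusted p = 3.71e-05) in membrane granulosa and 1.37 ± 0.16 (adjusted p = 1.14e-05) in antral granulosa. IDH1, the cytosolic NADP-linked enzyme, was called in antral granulosa only (0.62 ± 0.19, adjusted p = 0.0313), at 12.11, 12.58 and 12.40, against 11.62, 11.74 and 11.87. That call ended without cow B, C, D, F or G (0.0523 to 0.143 as adjusted p), and 2 further IDH1 probe sets were not called (0.70 and -0.27).

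SUCLA2, the ATP-forming beta subunit of succinyl-CoA synthetase, had the highest fitted rise of the 40 enzymes in membrane granulosa. Its levels there were 12.71, 11.94 and 12.48 after LH, against 10.44, 10.17 and 9.95 before LH, and in antral granulosa 12.56, 12.15 and 12.69, against 10.14, 10.03 and 10.10. The groups lay more than 1 unit apart in both (2.19 ± 0.29, adjusted p = 4.84e-05 and 2.38 ± 0.29, adjusted p = 1.75e-05). A dimmer SUCLA2 probe set was called higher in membrane granulosa, at 4.87, 4.17 and 4.07 after LH. There only cow A lay above 4.62, and no array before LH did. In antral granulosa this probe set lay below 4.62 on all 6 arrays. The GTP-forming beta subunit SUCLG2 was not called in any population. SUCLG1, the alpha subunit that both forms share, was called lower in antral granulosa alone (-0.43 ± 0.11, adjusted p = 0.00973), and not without cow A or B (0.0503 to 0.0719 as adjusted p).

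MDH2, the mitochondrial malate dehydrogenase that closes the cycle, was at 11.25, 11.16 and 11.77 in antral granulosa after LH, against 13.00, 12.88 and 13.01 before LH, without overlap (-1.57 ± 0.28, adjusted p = 0.000556). In membrane granulosa it was at 11.56, 11.58 and 12.56, against 12.77, 12.93 and 12.55 (-0.85 ± 0.28, adjusted p = 0.039). There cow C after LH overlapped the cows before LH, and the call ended without cow A, B, D, F or G (0.0864 to 0.203 as adjusted p). A second MDH2 probe set was called lower in antral granulosa (-1.03) and not in membrane granulosa (-0.70, adjusted p = 0.10).

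ACO1, the cytosolic aconitase that also acts as an iron-responsive RNA-binding protein, was lower in antral granulosa, at 7.56, 7.59 and 7.88 after LH, against 8.64, 8.13 and 8.33 before LH (-0.69 ± 0.16, adjusted p = 0.00446). In membrane granulosa the change was -0.47 ± 0.16 (adjusted p = 0.0454), and the call ended without cow A, B, D, F or G (0.0843 to 0.174 as adjusted p). CS, citrate synthase, which joins acetyl-CoA to oxaloacetate, was called higher in membrane granulosa (0.64 ± 0.19, adjusted p = 0.0217) but not without cow A, D or G (0.0559 to 0.143 as adjusted p), nor with its second probe set (0.83, adjusted p = 0.191). OGDH and FH were not called in any population.

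GPT, alanine aminotransferase, converts alanine and oxoglutarate to pyruvate and glutamate, and it had the lowest fitted change of the 40 enzymes in every population. It was at 6.40, 6.74 and 5.55 in membrane granulosa after LH, against 10.71, 10.95 and 11.22 before LH. In antral granulosa it was at 6.91, 6.57 and 6.04, against 10.76, 10.56 and 10.99, and in theca at 5.96, 6.18 and 5.59, against 8.47, 8.14 and 7.71. Arrays after LH lay far below those before LH in each population, with no overlap. GPT fell by 4.73, 4.27 and 2.19 on the log2 scale in membrane granulosa, antral granulosa and theca (adjusted p = 3.31e-08, 6.68e-08 and 0.000381). The aspartate aminotransferases GOT1, cytosolic, and GOT2, mitochondrial, were not called in any population. Without cow C, GOT1 was called lower in both granulosa populations, at the values given above.

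**Figure D3:**
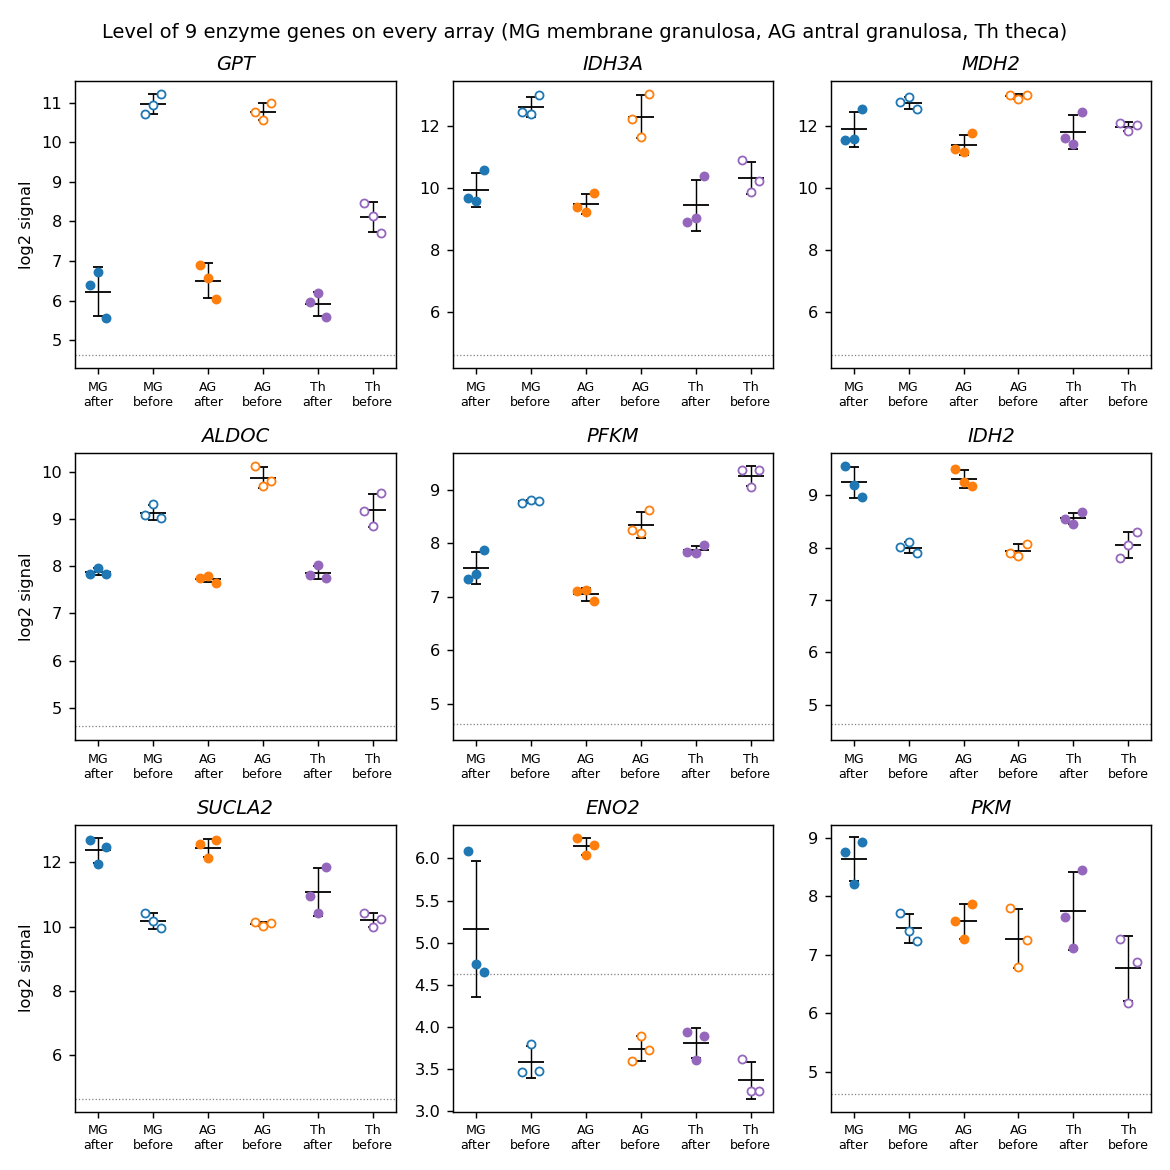
Log2 signal (y axis) of single arrays for 9 of the enzymes, in 3 cell populations with the cows after LH left of the cows before LH, and a mark with bars for the group mean ± SD. The dotted line is the limit of 4.62. GPT, PFKM and ALDOC lie lower after LH in all populations, and SUCLA2 lies higher after LH in granulosa.

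Whether the LH effect differed between populations was tested by comparing within-cow differences between the cows after LH and the cows before LH. The LH effect in theca differed from that in membrane granulosa for 5 of 40 enzymes, 12.5%, against 9.13% of all probe sets. In 3 the difference was positive (4.56% of all probe sets) and in 2 negative (4.57%), and with arrays centred on their median 3 and 1. GPT fell less in theca, by 2.19 against 4.73 in membrane granulosa, a difference of 2.54 ± 0.31 (adjusted p = 0.000398). The fitted change of IDH3A was -0.88 ± 0.42 in theca, where it was at 8.92, 9.02 and 10.38 after LH, against 10.89, 9.86 and 10.22 before LH with overlap, a difference of 1.78 ± 0.36 (adjusted p = 0.00799). That of MDH2 was -0.16 ± 0.28 in theca, a difference of 0.69 ± 0.19 (adjusted p = 0.0431). SUCLA2 was at 10.95, 10.41 and 11.87 in theca after LH, against 10.42, 9.99 and 10.22 before LH (0.87 ± 0.29, adjusted p = 0.13), a difference of -1.33 ± 0.27 (adjusted p = 0.009). IDH2 was at 8.55, 8.44 and 8.67, against 7.79, 8.05 and 8.30 (0.51 ± 0.16, adjusted p = 0.104), a difference of -0.74 ± 0.21 (adjusted p = 0.0497).

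The differences of GPT and IDH3A were called whichever cow was left out, and a second IDH3A probe set was called too (2.08). A second MDH2 probe set was not called (0.525, limma adjusted p = 0.187). Nor was the dimmer SUCLA2 probe set, which lay below 4.62 on all theca arrays. The SUCLA2 call ended without cow A, B or G (0.0545 to 0.0691 as adjusted p), that of IDH2 without cow A, B, D, F or G (0.0534 to 0.247 as adjusted p), and that of MDH2 without any 1 of the 6 cows (adjusted p 0.0577 to 0.181). Granulosa markers were not uniform in theca. Of 12, CYP19A1, HSD17B1, INHBA and LHCGR fell there after LH and CDH2 rose, at 8.76, 8.96 and 10.00 after LH, against 7.59, 6.60 and 5.23 before LH. LHCGR did not set theca apart from antral granulosa before LH, at 9.28, 7.96 and 8.46, against 7.36, 8.19 and 8.83. Membrane granulosa then had 9.57, 9.50 and 9.81. The summed level of the 12 granulosa markers was 13.92 to 14.30 in theca after LH, against 14.64 to 15.44 before LH, with 9 and 10 of 12 above 4.62 on all arrays. In membrane granulosa the sum was 14.78 to 15.39 after LH, against 16.48 to 16.56 before LH. FOXL2 was below the limit on all theca arrays, and CYP19A1 on all theca arrays after LH. Their part in the theca values was not tested.

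For antral against membrane granulosa, limma called no difference in LH effect for any of the 40 enzymes, and 0.0% of all probe sets. At an unadjusted p under 0.05, 18 of 40 enzymes differed, against 9.31% of all probe sets. The median of the 40 differences was -0.20, against 0.02 over all probe sets. The fitted change of TPI1 was -0.86 ± 0.35 in antral granulosa, against 0.04 ± 0.35 in membrane granulosa, a difference of -0.90 ± 0.21 (adjusted p = 0.339). That of PGAM1 was 0.13 ± 0.34, against 1.11 ± 0.34 (-0.98 ± 0.25, adjusted p = 0.366), and that of PFKP 0.03 ± 0.49, against 1.84 ± 0.49 (-1.81 ± 0.56, adjusted p = 0.427). None of these passed the adjustment, and they are named here after their values were seen.

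Theca and membrane granulosa of the same follicle were then compared. Before LH, 7 of 40 enzymes were higher in theca and 11 lower, 45.0%, against 34.3% of all probe sets (15.4% higher and 18.9% lower). After LH, 1 was higher and 12 lower, 32.5%, against 25.8% (11.4% higher and 14.4% lower), while quantile normalization gave 3 and 10. The median of the 40 enzymes was -0.15 before LH and -0.13 after LH, against -0.07 and -0.02 over all probe sets. Groups did not overlap for 20 enzymes before LH, against 41.6% of all probe sets, and for 10 after LH, against 32.4%. These comparisons and those of antral with membrane granulosa share the membrane arrays. Before LH, 5 enzymes were higher in theca and 10 lower without cow D, and 3 and 10 without cow G. After LH, leaving out cow A or B brought the lower calls to 4 and 5, and the higher calls were 4 without cow C and 2 without cow D. The enzymes added without cow C were PFKM (0.46), PDHB (0.53) and ACO1 (0.67), with adjusted p = 0.0479, 0.0426 and 0.0208.

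Glycolytic enzymes, 16 of the 40, made up 7 of 11 lower calls before LH and 7 of 12 after LH, a share that was not tested. Before LH, ENO1 (-0.89 ± 0.11), ALDOA (-0.84 ± 0.16), GPI (-0.81 ± 0.16), PKM (-0.68 ± 0.18), TPI1 (-0.63 ± 0.15), PGK1 (-0.58 ± 0.13) and HK1 (-0.46 ± 0.16) were lower in theca, besides LDHA. After LH, ENO1 (-0.67 ± 0.11), PKM (-0.89 ± 0.18), ALDOA (-0.60 ± 0.16), GPI (-0.59 ± 0.16), PGK1 (-0.57 ± 0.13) and PFKL (-0.55 ± 0.18) were. ENO1 was at 13.03, 12.50 and 12.94 in theca before LH, against 13.84, 13.55 and 13.76 in membrane granulosa, without overlap and lower in theca of 3 of 3 cows (adjusted p = 4.84e-05). PKM was at 7.65, 7.13 and 8.45 in theca after LH, against 8.76, 8.22 and 8.92 in membrane granulosa (adjusted p = 0.00372), lower in theca of 3 of 3 cows although the groups overlapped. The calls after LH of PKM, ALDOA, GPI and PFKL ended without cow A and without cow B, that of PFKL also without cow C, and that of PGK1 without cow A. The HK1 call before LH ended without cow A, B, C, D or G (0.0531 to 0.189 as adjusted p).

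LDHA was at 10.84, 10.75 and 10.95 in theca before LH, against 13.04, 12.16 and 12.50 in membrane granulosa (-1.72 ± 0.21, adjusted p = 5.39e-05), and after LH the difference was -1.22 ± 0.21 (adjusted p = 0.00121). Its further probe sets again did not follow: -0.31 and 1.25 before LH, the second called higher, and 0.41 and 0.42 after LH. ENO2, below 4.62 on all theca arrays, was lower in theca after LH by at least 0.54 (adjusted p = 0.00145). PFKP was higher in theca before LH, at 7.10, 7.79 and 7.44, against 5.81, 5.38 and 5.38 in membrane granulosa (1.92 ± 0.40, adjusted p = 0.00229). After LH, at 7.32, 7.52 and 7.96, against 7.56, 6.43 and 8.09, it was not called (0.24 ± 0.40, adjusted p = 0.738).

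PDK4, a kinase that inactivates pyruvate dehydrogenase and is induced by fasting in many tissues, was higher in theca at both times. It was at 10.21, 9.23 and 7.79 in theca before LH, against 7.82, 6.33 and 6.48 in membrane granulosa (2.20 ± 0.38, adjusted p = 0.000656). After LH it was at 10.97, 9.73 and 10.18, against 7.45, 6.60 and 8.15 (2.89 ± 0.38, adjusted p = 0.000256). Theca was higher in 3 of 3 cows each time, although before LH the theca array of cow G lay just below the membrane array of cow D. The 2 further PDK4 probe sets were called higher as well, at 2.65 and 2.34 before LH and 2.82 and 2.89 after LH. IDH3G (0.66 ± 0.15), the E1 beta subunit PDHB (0.60 ± 0.15), LDHB (0.49 ± 0.13), PFKM (0.48 ± 0.15) and CS (0.41 ± 0.13) completed the higher calls before LH. Those of PFKM and CS ended without cow D or G and that of LDHB without cow G, and the lower calls of PKM and PGK1 without cow F. PDHB was at 10.03, 9.81 and 9.96 in theca, against 9.41, 9.58 and 9.01 in membrane granulosa, and its call ended without cow G (0.0997 as adjusted p).

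GPT and IDH3A were lower in theca before LH. GPT differed by -2.85 ± 0.22 (adjusted p = 3.79e-06) and IDH3A by -2.28 ± 0.25 (adjusted p = 3.03e-05), both lower in theca of 3 of 3 cows. After LH neither was called (-0.32 ± 0.22, adjusted p = 0.341, and -0.50 ± 0.25, adjusted p = 0.18). SUCLA2 stood the other way: it was not called before LH (0.03 ± 0.19, adjusted p = 0.934) and lower in theca after LH (-1.30 ± 0.19, adjusted p = 0.000518), with PC (-0.87 ± 0.24), IDH2 (-0.69 ± 0.15) and SUCLG2 (-0.42 ± 0.13). The calls of PC, IDH2 and SUCLG2 ended without cow A and without cow B. Markers of other cells separated these preparations. Of 7 smooth muscle and pericyte genes, 5 were higher in theca and 2 lower before LH, and 6 higher and 0 lower after LH. Of 9 leukocyte genes, 4 were higher in theca before LH and 3 after LH, with 0 lower. The summed level of 8 fibroblast and stroma genes was 15.41 to 15.80 in theca before LH, against 11.57 to 13.29 in membrane granulosa, and 15.57 to 15.98 after LH, against 13.19 to 14.66, with all 8 above 4.62 on every array. That of 7 endothelial genes was 11.11 to 11.86 in theca before LH, against 7.42 to 8.38, and 11.02 to 11.91 after LH, against 7.74 to 8.97, with KDR below the limit on all of these arrays. Their part in the enzyme values was not tested.

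**Figure D4:**
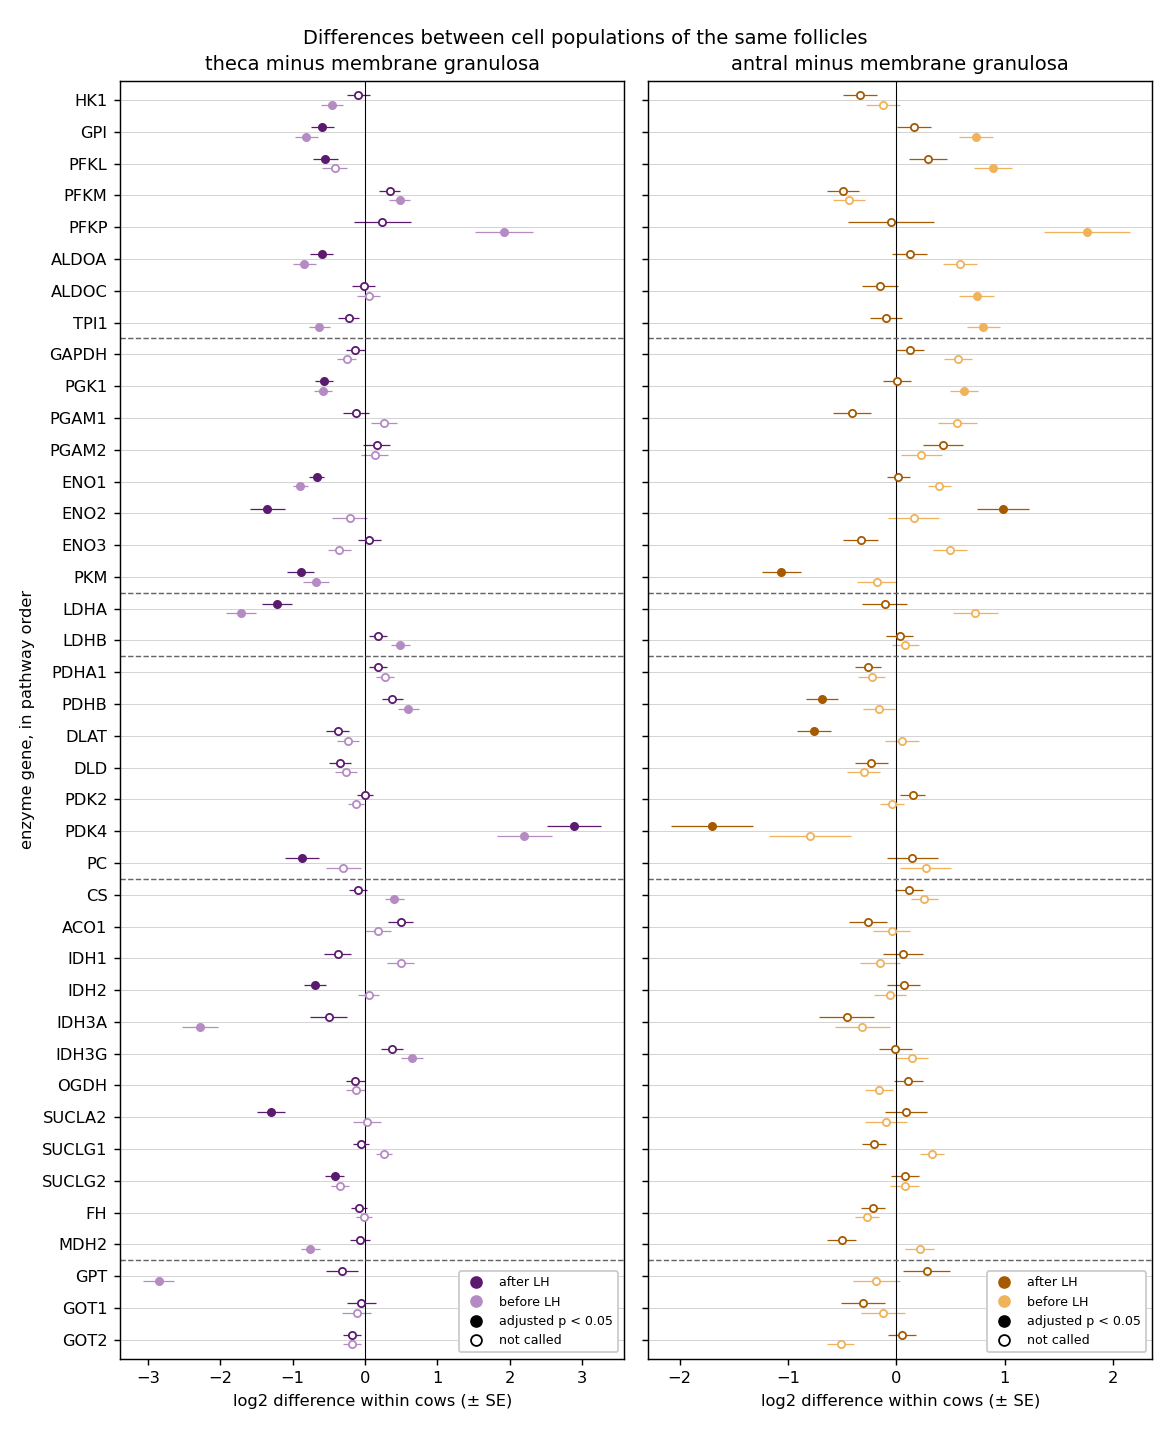
Difference from membrane granulosa of the same cows (x axes, log2 ± SE, n = 3 cows) for the 40 enzyme genes in pathway order (y axis), after LH and before LH, for theca and for antral granulosa, with filled points for adjusted p under 0.05. PDK4 lies right for theca at both times, and upper glycolytic enzymes lie right for antral granulosa before LH.

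Antral and membrane granulosa differed in fewer enzymes. Before LH, 6 of 40 were higher in antral granulosa and none lower, against 1.77% of all probe sets (0.687% higher and 1.09% lower). At an unadjusted limma p under 0.05, 16 of 40 differed, against 17.0% of all probe sets. All 6 called belong to glycolysis, 5 of them to the 8 enzymes from glucose to triose phosphate. PFKL, the liver-type phosphofructokinase subunit, was at 9.59, 8.61 and 8.71 in antral granulosa, against 8.26, 8.00 and 7.99 in membrane granulosa (0.89 ± 0.18, adjusted p = 0.0281). TPI1 was at 13.06, 12.37 and 12.55, against 11.99, 11.80 and 11.79 (0.80 ± 0.15, adjusted p = 0.0235). The groups did not overlap, and antral granulosa was higher in 3 of 3 cows for each of the 6. Over all 40 enzymes 18 did not overlap, against 18.4% of all probe sets.

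PFKP was at 8.21, 7.64 and 5.98 in antral granulosa before LH, against 5.81, 5.38 and 5.38 in membrane granulosa (1.75 ± 0.40, adjusted p = 0.0464), with cow G far below cows D and F. ALDOC was at 10.12, 9.69 and 9.81, against 9.09, 9.31 and 9.01 (0.74 ± 0.16, adjusted p = 0.043). GPI, which makes fructose phosphate, differed by 0.73 ± 0.16 (adjusted p = 0.0384) and PGK1, the first ATP-forming step, by 0.62 ± 0.13 (adjusted p = 0.0327). None of the 6 calls held whichever cow was left out: 1 remained without cow A, none without B, 4 without C, none without D, 1 without F and 1 without G. No call remained without the cow block or with only the arrays compared in the fit. The 3′ minus 5′ signal of the GAPDH control probe sets, a sign of RNA length, was 0.12 to 0.47 in antral granulosa before LH, against 0.30 to 0.86 in membrane granulosa. That of the actin control probe sets was 1.15 to 2.25, against 1.39 to 1.88. Stroma markers were lower in antral granulosa before LH for 6 of 8 genes, with a summed level of 8.76 to 9.01, against 11.57 to 13.29, and theca markers for 3 of 7. Of 9 leukocyte markers 1 was higher and 0 lower. Their summed level was 10.08, 8.79 and 8.52 in antral granulosa of cows D, F and G, against 8.95 to 9.19 in membrane granulosa. The part of these in the enzyme calls was not tested.

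After LH, 1 of 40 enzymes was higher in antral granulosa and 4 lower, 12.5%, against 3.00% of all probe sets (1.43% higher and 1.57% lower). PDK4 was at 5.56, 5.82 and 5.73 in antral granulosa, against 7.45, 6.60 and 8.15 in membrane granulosa (-1.70 ± 0.38, adjusted p = 0.0379), and its further probe sets were called lower too (-2.94 and -1.91). PKM was at 7.58, 7.28 and 7.87, against 8.76, 8.22 and 8.92 (-1.06 ± 0.18, adjusted p = 0.0206). DLAT was at 7.43, 7.72 and 8.49, against 8.33, 8.16 and 9.44 (-0.76 ± 0.16, adjusted p = 0.0309), and PDHB at 8.51, 8.76 and 9.15, against 9.07, 9.26 and 10.14 (-0.69 ± 0.15, adjusted p = 0.0335). Both are subunits of pyruvate dehydrogenase. ENO2 was higher (0.98 ± 0.24, adjusted p = 0.0459), with quantile normalization giving none higher and 3 lower. Groups did not overlap for 5 of 40 enzymes, against 22.9% of all probe sets.

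The calls after LH did not hold whichever cow was left out: none remained without cow A or B, 1 lower without C, 2 lower without D, and 4 lower without F or G. Without the cow block no enzyme was called, and ENO2 was not called with only the arrays compared in the fit and was among the dim probe sets left out in another alternative. Stroma markers ran beside PDK4. The sum of the 8 fibroblast and stroma genes was 9.50 to 11.86 in antral granulosa after LH, against 13.19 to 14.66 in membrane granulosa, with 6 and 8 of 8 above 4.62 on all arrays and OGN below it on all antral arrays. The sum of 7 theca genes was 10.23 to 12.32, against 12.61 to 13.94. Their part in the difference was not tested.

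Genes beside the 40 enzymes were read from 10 lists of the same metabolism, counted where they had a probe set. Over all lists 20.7% of 92 genes were called in membrane granulosa, 32.6% in antral granulosa and 9.78% in theca, against 21.0%, 22.4% and 3.92% of all probe sets, so the counts in membrane granulosa are near that of the whole array. Among 15 other glycolytic genes 2 rose and 1 fell in membrane granulosa, 2 rose and 2 fell in antral granulosa, and 1 rose in theca. PFKFB3, which makes the sugar bisphosphate that activates phosphofructokinase, was at 9.48, 9.18 and 8.70 in membrane granulosa after LH, against 6.89, 6.62 and 6.20 before LH (2.55 ± 0.42, adjusted p = 0.000368), and at 8.19, 8.66 and 8.13, against 5.84, 6.10 and 5.44, in theca (2.53 ± 0.42, adjusted p = 0.00236). In antral granulosa it was not called (0.84 ± 0.42, adjusted p = 0.187). The mitochondrial glycerol phosphate dehydrogenase GPD2 rose in membrane granulosa (1.91 ± 0.47) and antral granulosa (1.84 ± 0.47), and the ADP-dependent glucokinase ADPGK fell in both (-0.89 ± 0.22 and -1.02 ± 0.22). In gluconeogenesis, 1 of 6 genes rose and 1 fell in membrane granulosa and 1 rose in antral granulosa, with none called in theca. FBP1 rose (1.10 ± 0.31) and PCK2 fell (-0.73 ± 0.21) in membrane granulosa, and PCK1 was below 4.62 on all arrays where it was called.

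Of 4 genes of pyruvate dehydrogenase control, PDK3 was the one called. PDK3, a further kinase of the complex, was at 10.90, 10.58 and 10.50 in membrane granulosa after LH, against 8.76, 8.44 and 8.48 before LH (2.10 ± 0.19, adjusted p = 1.09e-06), and at 10.94, 10.76 and 11.01, against 8.85, 8.48 and 8.64, in antral granulosa (2.25 ± 0.19, adjusted p = 3.76e-07). In theca the value was 0.53 ± 0.19 (adjusted p = 0.15), which differed from membrane granulosa by -1.57 ± 0.20 (adjusted p = 0.000514). Among 14 transport genes 3 rose in membrane granulosa, 2 rose in antral granulosa, and 1 rose and 1 fell in theca. SLC25A12, the mitochondrial aspartate-glutamate carrier of the malate-aspartate shuttle, was at 9.86, 9.76 and 9.89 in membrane granulosa after LH, against 6.47, 6.56 and 6.66 before LH (3.28 ± 0.23, adjusted p = 9.33e-08). It rose by 3.25 ± 0.23 in antral granulosa and 1.73 ± 0.23 in theca (adjusted p = 7.53e-08 and 0.000328). MPC1, a subunit of the mitochondrial pyruvate carrier, rose in membrane (1.47 ± 0.25) and antral granulosa (1.26 ± 0.25), and the citrate carrier SLC25A1 fell in theca (-1.05 ± 0.21).

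Among 10 other genes of the citric acid cycle 1 rose in membrane granulosa, 2 rose and 3 fell in antral granulosa, and 1 rose in theca. The mitochondrial malic enzyme ME2, which turns malate into pyruvate, rose in all (1.23 ± 0.16 in membrane granulosa, 1.16 ± 0.16 in antral granulosa and 0.69 ± 0.16 in theca). In antral granulosa ME3 rose (0.70 ± 0.20) and the cytosolic ME1 fell (-0.90 ± 0.26). Among 8 glycogen genes 3 rose in membrane granulosa, 3 rose and 1 fell in antral granulosa, and none was called in theca. They were GYG1, the primer of glycogen (1.30 ± 0.15 and 1.13 ± 0.15 in membrane and antral granulosa), the glycogen phosphorylase PYGB (0.94 ± 0.23 and 0.90 ± 0.23) and UGP2, which makes UDP-glucose (0.70 ± 0.14 and 0.55 ± 0.14).

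The pentose phosphate list of 7 genes had 1 that rose in membrane granulosa, 2 that rose and 1 that fell in antral granulosa, and 1 that fell in theca. The last was TKT, transketolase (-1.24 ± 0.24), and in antral granulosa TKTL1 rose (1.20 ± 0.39) and PGLS fell (-0.45 ± 0.14). Of 7 genes of hexosamine and hyaluronan precursors, UAP1 rose in membrane (0.71 ± 0.22) and antral granulosa (0.64 ± 0.22) and GNPNAT1 fell in antral granulosa (-0.99 ± 0.25), with none called in theca. Of 6 genes of glutamine and glutamate, PHGDH fell in antral granulosa (-1.15 ± 0.35). In theca glutamine synthetase GLUL fell (-1.19 ± 0.30). GLS2 lay below 4.62 on all theca arrays after LH, and its group mean was lower by at least 0.32. Before LH it was at 5.29, 4.05 and 5.50 in theca, with cow F also below 4.62.

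Among 15 regulators of glycolysis and hypoxia targets 3 rose and 1 fell in membrane granulosa, 4 rose and 3 fell in antral granulosa, and 2 rose in theca. The genes did not move one way, although those with the smallest adjusted p in any LH comparison, given below, all rose. VEGFA, of the same list, was at 7.92, 7.47 and 9.25 in antral granulosa after LH, against 12.34, 11.38 and 10.08 before LH. NDRG1, which is induced by hypoxia in many cells, was at 11.41, 10.46 and 10.40 in membrane granulosa after LH, against 5.88, 5.77 and 5.82 before LH (4.94 ± 0.35, adjusted p = 1.45e-07), and changed by 5.99 ± 0.35 (adjusted p = 1.39e-08) in antral granulosa. In theca it was not called (0.97 ± 0.35, adjusted p = 0.168), and the LH effect differed from that in membrane granulosa by -3.96 ± 0.41 (adjusted p = 0.000158). The peptide hormone gene ADM rose in all populations (2.83 ± 0.44, 3.15 ± 0.44 and 2.03 ± 0.44 in membrane granulosa, antral granulosa and theca), as did the mitophagy receptor BNIP3L (1.31 ± 0.19, 0.98 ± 0.19 and 0.89 ± 0.19).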

How the data were processed

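The authors deposited log2 signals per probe set of 18 Affymetrix bovine arrays, made with RMA in Partek 6.5 per the submitters' processing notes; RMA's settings are not given in the sources used here. RNA came from a Trizol extraction and was labelled with a 3′ IVT kit, per the labels' protocols. The values ran from 2.29 to 14.90, with array medians of 5.74 to 5.86 and correlations of 0.97 to 0.99 within groups, and no 2 arrays were identical. Precision is limited by the 3 arrays a group.

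Of 24128 entries, 112 control probe sets were left out and 24016 tested. The platform annotation, which can be old, gave 13292 of them 1 symbol, 86 several and 10638 none. The RefSeq table held the gene ID of 13263 and changed no symbol. Of the 40 enzymes, 14 had further probe sets.

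The fits were made in R 4.3.3 with limma 3.58.1 (lmFit, eBayes, Benjamini-Hochberg, threshold 0.05), after the code was tested on simulated data. Effects of LH compare different cows, with 6 group means. Comparisons between populations, and differences in LH effect, blocked on the cow. The pairing comes from the labels, which name the cow: after group means were removed, arrays of 1 cow correlated at -0.02 to 0.69 (17 of 18 pairs over 0.1). A probe set is dim below 4.62, under which the means of 8005 probe sets lie; where 1 group is dim on all arrays, only a bound is given.

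For each LH comparison up to 6 called enzymes each way, and for each other comparison up to 4, are given by array, with up to 3 genes of each further list. GPT2 and VEGFA are given besides these. The enzymes, lists and tests were chosen with earlier results of these data known.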

Additional observations from a re-analysis of the deposited data

Results flagged for a closer look

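The LH effect in theca differed from that in membrane granulosa by a limma contrast for 5 of 40 enzymes, 12.5%, against 9.13% of all probe sets. The calls of GPT and IDH3A held whichever cow was left out, and those of SUCLA2, IDH2 and MDH2 did not. Without the cow as a block, 1 enzyme was called higher and 0 lower. The difference, theca minus membrane granulosa, was 2.54 ± 0.31 for GPT (adjusted p = 0.000398), 1.78 ± 0.36 for IDH3A (adjusted p = 0.00799) and 0.69 ± 0.19 for MDH2 (adjusted p = 0.0431). It was -1.33 ± 0.27 for SUCLA2 (adjusted p = 0.009) and -0.74 ± 0.21 for IDH2 (adjusted p = 0.0497). The summed granulosa marker level was 13.92 to 14.30 in theca after LH, against 14.64 to 15.44 before LH. Of the 12 markers 4 were lower, LHCGR among them, and CDH2 was higher, and their part was not tested.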

How the results depend on the processing

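Counts are of the 40 enzymes. Leaving out each cow in turn gave 4 (5 without cow G) to 8 that rose and 4 to 8 that fell in membrane granulosa, 3 to 4 and 7 to 15 in antral granulosa, and 0 to 1 and 3 in theca. Theca against membrane granulosa then had 3 to 8 higher and 9 to 11 lower before LH, and 1 to 4 higher and 4 (5 without cow B) to 12 lower after LH. Antral against membrane granulosa had 0 to 4 higher before LH, and 0 higher and 0 to 4 lower after LH. The difference in LH effect, theca minus membrane granulosa, had 2 higher and 0 to 3 lower. With the second probe set of each gene, 3 enzymes rose in antral granulosa, 0 rose in theca, and 1 difference was lower; single values reversed for PC in antral granulosa (-0.28), LDHA in theca (-0.003) and after LH in theca against membrane granulosa (0.41), and PDHB before LH in theca against membrane granulosa (-0.012) and after LH in antral against membrane granulosa (0.19). With only the arrays compared in the fit, 0 rose in theca, 4 were higher in theca before LH, 0 in antral granulosa before LH and 0 after LH, and 1 difference was lower. Without the cow as a block, the calls were 6 lower before LH and 2 higher and 7 lower after LH in theca, 0 higher before LH and 0 higher and 0 lower after LH in antral granulosa, and 1 higher and 0 lower for the difference. The replicate number as a block in the LH effects, where a number names different cows (correlations -0.18 to 0.23, 3 of 27 pairs over 0.1), gave 2 that rose in theca. Quantile normalization gave 3 higher in theca after LH and 0 higher in antral granulosa after LH, leaving out dim probe sets 2 and 0, and 1 probe set per gene 2 higher in theca after LH, 1 lower in antral granulosa before LH and 4 lower differences. Moderation with trend and robust gave 1 lower in antral granulosa before LH and 4 lower differences, and centring 1 lower difference. The other counts stayed within 1.5 times, and the causes were not tested. Centring and quantile normalization moved the median of all probe sets by at most 0.07. With 3 cows a group, and no detection calls here, small changes and dim genes such as ENO2 and PGAM2 are poorly bounded.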
